A study of Mus musculus with 9 samples.

Results

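The table holds 40 voltage-gated potassium channel genes among 21536 genes, taken as every symbol that begins with Kcna, Kcnb, Kcnc, Kcnd, Kcnf, Kcng, Kcnh, Kcnq, Kcns or Kcnv followed by a digit. All 40 had at least 1 unique transcript (UMI) in the neurons, and together they gave 20052 UMIs there. The cells came from FVB/N mice of wild type genotype, 3 to 6 weeks old by the labels, whose trigeminal ganglia were dissociated, depleted of glia and captured in 9 Dropseq runs, each a pool of animals of both sexes. No other genotype or treatment was used. The 6997 cell barcodes of the single table do not name their run, so the cells were treated together as a single sample, and differences between groups were not tested.

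Voltage-gated potassium channels open when a neuron is depolarized and return it to rest, and so set firing threshold, spike width and repetitive firing. Each channel is built from alpha subunits of the same family: Kv1 (Kcna) and Kv7 (Kcnq) restrain firing near threshold, Kv2 (Kcnb) is the slow delayed rectifier of the soma, Kv3 (Kcnc) gives fast repolarization, and Kv4 (Kcnd) gives a rapidly inactivating A-type current. The Kv10 to Kv12 subunits (Kcnh) form the ether-a-go-go family, and the silent subunits of Kcnf, Kcng, Kcns and Kcnv form no channel alone but modify Kv2. In somatosensory ganglia, different mixtures of these currents are known in cold, touch, itch and pain neurons.

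Neurons were barcodes with 500 to 7500 genes, no Epcam UMI and a UMI of at least 3 of 6 neuron genes, which left 3855. The first matching gate then placed 2415 of them in 7 marker groups: Trpm8 with at least 2 UMIs (244 neurons), Mrgprd with at least 2 (379), Mrgpra3 with at least 1 (49), Nppb with at least 2 (57), Cd34 with at least 1 (320), Nefh with at least 5 and no Trpv1 (450), and Calca with at least 5 and Trpv1 (916). These gates pick out cold, nonpeptidergic, itch (Mrgpra3 and Nppb), C-fiber touch, large myelinated and peptidergic heat-sensing neurons by textbook markers. Of further markers that the gates do not use, 20 of 20 were highest in their own group, though none of the 20 belonged to the Mrgpra3 group. All 20 are heatmap genes that the paper chose from top markers of its clusters of these same cells. Their order was thus close to fixed and is no independent check of the groups. Median depth ran from 3406 UMIs in the Nppb group to 5835.5 in the Cd34 group, and 349 neurons met more than 1 gate, 149 of them in the Trpm8 group. The 6 barcode sequences that appear under 2 columns, 12 columns in all, were kept as separate cells. Levels are UMIs of a gene per 1000000 UMIs of the group (CPM), with exact Poisson 95% intervals in parentheses, and ratios set a group against the other 6 together, with exact binomial intervals. All intervals cover counting error only, not the spread between runs or animals. UMIs mark transcript ends and were not divided by length, so the text compares 1 gene between groups rather than genes with each other.

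No group was highest for all members. Of the 28 members with at least 100 UMIs over the 7 groups, 9 had their highest level in the Nefh group, 5 each in the Calca, Cd34 and Mrgprd groups, and 4 in the Trpm8 group. Kcng2, Kcnh5, Kcnh8, Kcnq5 and Kcns2 were among those that reached 100 UMIs only with the UMIs of their highest group. For 17 of the 28 the interval of the highest group overlapped that of at least 1 other group, and for 11 it stood apart from all. Neither count was taken over all genes, so whether they are unusual for genes with this many UMIs was not tested. The heat map by family shows the levels in each group.

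**Figure D1:**
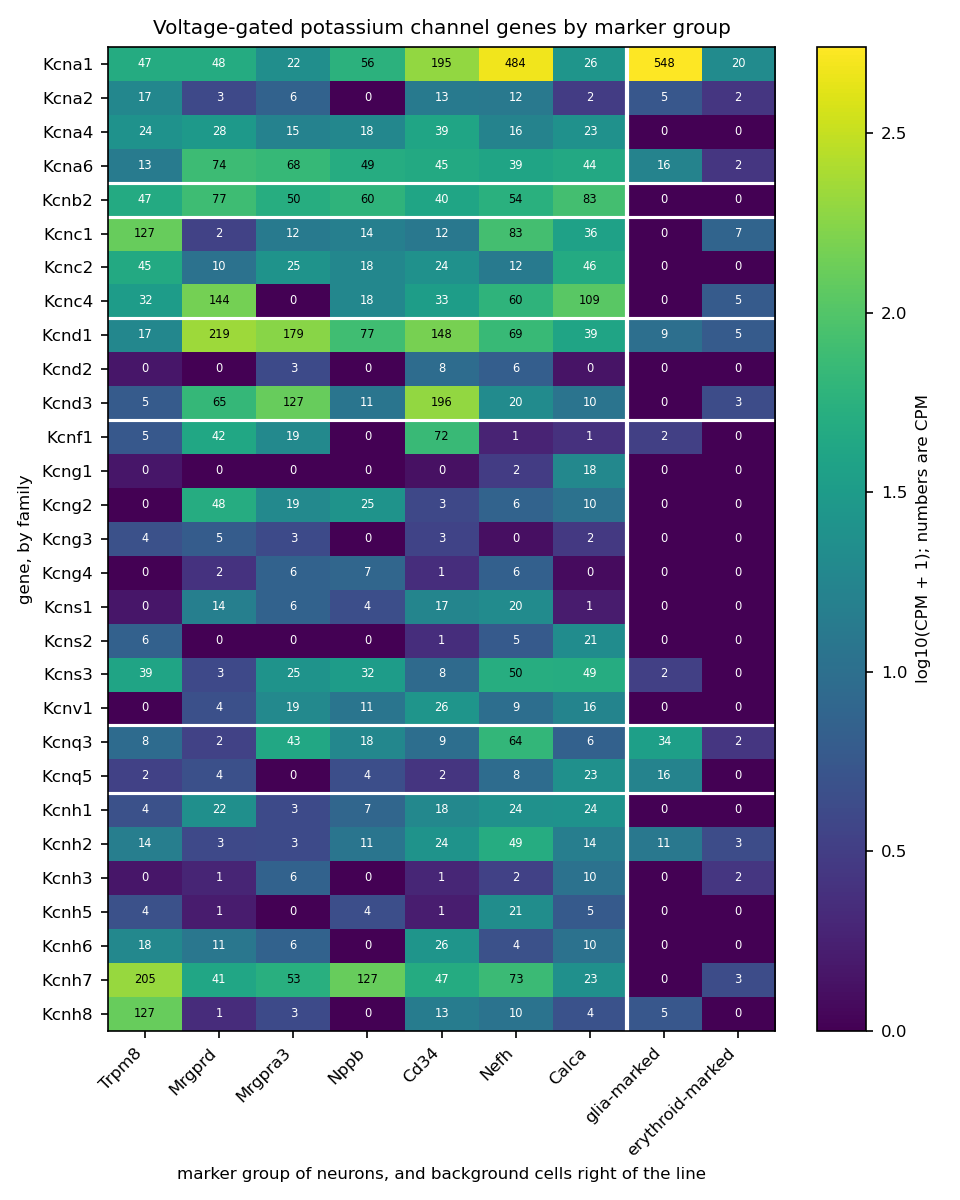
Level of channel genes with at least 30 UMIs over the 7 marker groups (rows, by family) in each marker group of neurons and in glia-marked and erythroid-marked cells (columns); color is log10(CPM + 1) and the printed numbers are CPM. Kcna1 is high in the Nefh group (484) and in glia-marked cells (548), while Kcnh8 is at 127 in the Trpm8 group and at most 13.2 in the others.

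The bases in front of 5 members are printed to show the regions that precede genes high in different groups: Kcnc1, Kcnh7 and Kcnh8, which were high in the Trpm8 group, and Kcnd3 and Kcnf1, which were high in the Cd34 group. Each line holds the 250 bases before the RefSeq start on build GRCm38.p6, 5′ to 3′ on the gene's strand, with matches to GGGCGG on either strand in capitals.
Kcnc1: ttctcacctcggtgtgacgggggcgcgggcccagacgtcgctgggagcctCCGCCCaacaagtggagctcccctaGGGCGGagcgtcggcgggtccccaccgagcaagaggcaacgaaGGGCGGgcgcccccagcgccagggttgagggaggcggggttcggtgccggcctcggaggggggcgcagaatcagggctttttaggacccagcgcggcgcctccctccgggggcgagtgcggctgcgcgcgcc
Kcnh7: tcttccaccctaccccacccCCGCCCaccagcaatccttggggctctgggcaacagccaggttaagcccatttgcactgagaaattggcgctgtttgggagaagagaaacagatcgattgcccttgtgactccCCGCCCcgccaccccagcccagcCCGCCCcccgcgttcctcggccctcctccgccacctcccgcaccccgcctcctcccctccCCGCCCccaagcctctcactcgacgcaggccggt
Kcnh8: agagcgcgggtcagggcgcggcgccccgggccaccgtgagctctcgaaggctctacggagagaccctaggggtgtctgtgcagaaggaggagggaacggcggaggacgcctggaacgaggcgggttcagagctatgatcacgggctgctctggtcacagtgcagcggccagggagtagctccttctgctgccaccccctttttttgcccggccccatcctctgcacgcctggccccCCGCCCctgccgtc
Kcnd3: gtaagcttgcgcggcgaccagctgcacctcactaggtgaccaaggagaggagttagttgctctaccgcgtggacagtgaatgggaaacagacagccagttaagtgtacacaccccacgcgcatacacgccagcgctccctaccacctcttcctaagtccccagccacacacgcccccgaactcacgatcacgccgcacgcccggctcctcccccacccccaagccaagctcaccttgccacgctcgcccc
Kcnf1: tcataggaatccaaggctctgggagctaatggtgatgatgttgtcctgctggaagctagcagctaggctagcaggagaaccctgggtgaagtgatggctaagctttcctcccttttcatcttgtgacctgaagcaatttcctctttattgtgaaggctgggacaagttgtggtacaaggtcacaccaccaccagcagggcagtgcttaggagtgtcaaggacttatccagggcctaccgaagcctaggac
The windows lie at chr7:46396218-46396467 (plus strand), chr2:63184288-63184537 (minus), chr17:52602459-52602708 (plus), chr3:105451640-105451889 (plus) and chr12:17176889-17177138 (minus), in the order printed. The annotation places Gm27217 over the Kcnh8 window and Kcnd3os over the Kcnd3 window, both on the minus strand, and no gene over the other 3. GGGCGG occurs 3 times before Kcnc1, 4 times before Kcnh7 and once before Kcnh8, and not in the Kcnd3 and Kcnf1 windows. The window of Kcna2, also at least 2-fold higher in the Trpm8 group, does not hold it either. Of all 32851 promoters of this length, 32.7% hold it, against 16 of the 25 members with an entry (64%). The windows of Kcnc1, Kcnh7, Kcnh8, Kcnd3 and Kcnf1 hold 30, 16, 20, 18 and 1 CG pairs, and the median over all promoters was 6. Of all promoters, 12.4% hold TATAAA on either strand, 6.02% hold the E-box CACGTG, 4.40% hold the motif TGTGGTT and 3.17% hold the motif TGTTTAC, and none of the 5 windows held any of them. The 5 motifs do not overlap each other. A match of these letters is a description and shows no binding.

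In the Trpm8 group a few members were well above their level in the other groups and more members were below it. Of 33 members with at least 30 UMIs over the groups, 5 were at least 2-fold higher than in the other groups (background over all 12489 genes tested, 4.38%) and 17 were at least 2-fold lower (background 15.7%), which was 11 after thinning to 1000 UMIs or without neurons of more than 1 gate. The median log2 ratio over the 33 members was -1.04, and over all genes -0.12; after thinning they were -0.35 and 0.04, and without neurons of more than 1 gate -0.55 and -0.03. A call here means only that the ratio passed 2-fold.

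Kcnh8, an ether-a-go-go family (Kv12) subunit on chromosome 17 (52602709 to 52979194), had 127 CPM (112 to 143) in the Trpm8 group. It had 13.2 in the Cd34 group, 10.01 in the Nefh, 3.90 in the Calca, 3.09 in the Mrgpra3 and 1.22 in the Mrgprd group, and no UMI in the Nppb group. The Trpm8 level was thus 19.5 times (15.5 to 24.8) that of the other groups together and 9.57 times that of the next group, and the intervals did not overlap. Kcnh8 UMIs were in 43.4% of Trpm8 neurons and in 0.403% of glia-marked cells.

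Kcnh7, an erg (Kv11) subunit on chromosome 2 (62693414 to 63184287), had 205 CPM (186 to 225) in the Trpm8 group and was present in all the others. It had 127 CPM (88.8 to 176) in the Nppb, 73.0 in the Nefh, 52.6 in the Mrgpra3, 47.5 in the Cd34, 41.3 in the Mrgprd and 22.6 in the Calca group. The Trpm8 level was 4.51 times (3.99 to 5.09) that of the others, and the intervals of the Trpm8 and Nppb groups did not overlap. Kcnh7 shares exon bases with Gca on the opposite strand, which had 328 UMIs in the table, and whether the counting used strand is not given in the sources used here. The same limit holds for Kcna6, which overlaps Gm26673 (39 UMIs), for Kcnq5, which overlaps Gm26580 (1 UMI), and for Kcnd3, Kcng2 and Kcnq1, whose opposite-strand neighbors were not analysed here.

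Kcnc1, a fast Kv3 subunit on chromosome 7 (46396497 to 46438704), was high in both the Trpm8 group, at 127 CPM (112 to 143), and the Nefh group, at 82.7 (73.3 to 93.0). It had 36.3 in the Calca, 14.1 in the Nppb, 12.4 in the Mrgpra3, 11.6 in the Cd34 and 2.45 in the Mrgprd group, a gap of over an order of magnitude between the highest and lowest groups. The ratio was 3.79 (3.26 to 4.40) for the Trpm8 group and 2.32 (1.997 to 2.69) for the Nefh group. Kcna2, a Kv1 subunit of axons, had 17.4 CPM in the Trpm8 group, a ratio of 2.63 (1.76 to 3.87), followed by 12.6 in the Cd34 and 11.8 in the Nefh group, and the intervals of these 3 groups overlapped.

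Among the 17 members at least 2-fold lower in the Trpm8 group were Kcna1, Kcna6, Kcnc4, Kcnd1, Kcnd2, Kcnd3, Kcnf1, Kcng1, Kcng2, Kcnh1, Kcnh3, Kcnq3, Kcnq5, Kcns1 and Kcnv1. Kcng2 and Kcnv1, silent subunits, had no UMI there, where 3 counts would give 1.41 CPM. At least 1 of Kcnc1, Kcnh7 and Kcnh8 was seen in 81.6% of Trpm8 neurons, and in 34.9% of them at equal depth, after thinning to 1000 UMIs. The next were the Nefh group, at 53.6% and 19.2%, and the Nppb group, at 43.9% and 14.0%, followed by 40.3% and 7.37% in the Cd34 group. In the other 3 groups the share was 24.0% to 32.7% as counted, and in glia-marked cells 0.403%. Kcnc1, Kcnh7 and Kcnh8 have the largest Trpm8 ratios of the members in these same neurons. First place for the Trpm8 group was thus close to fixed by the choice of genes. The Trpm8 group had a summed Kv4 level of 23.1 CPM (17.1 to 30.5), the lowest of the 7 groups.

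Within the Trpm8 group, neurons with at least 5 UMIs of Tac1 (150), the substance P gene, were set against those with 0 or 1 (61), a split chosen after seeing the data. Kcnc4, with 37.8 CPM against 10.7, and Kcnh6, with 17.9 against 7.11, were at least 2-fold higher (background 7.62%), but the second set held 3 and 2 of their UMIs. Kcna1 was at least 2-fold lower (background 2.59%), with 40.2 CPM against 96.0, and the glial genes were 106 and 480 CPM. Median depth was 7979 and 3400 UMIs, and the part of depth and glial RNA was not tested.

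The A-type Kv4 family was high in the Cd34, Mrgpra3 and Mrgprd groups. Its summed level was 352 CPM (332 to 374) in the Cd34 group, 309 (252 to 376) in the Mrgpra3 and 284 (266 to 303) in the Mrgprd group. It was 93.9 in the Nefh, 88.0 in the Nppb and 49.3 in the Calca group. Of these, the Cd34 and Mrgprd intervals were separate and that of the small Mrgpra3 group overlapped both. At least 1 of Kcnd1 and Kcnd3 was seen in 79.7% of Cd34 neurons, 73.6% of Mrgprd and 16.4% of Trpm8 neurons, against 1.61% of glia-marked cells; at equal depth these shares were 30.1%, 24.8%, 1.91% and 1.12%. Kcnd1 and Kcnd3 have their highest levels in the Mrgprd and Cd34 groups in these same neurons. The high shares of these groups were thus close to fixed by the choice of genes.

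**Figure D2:**
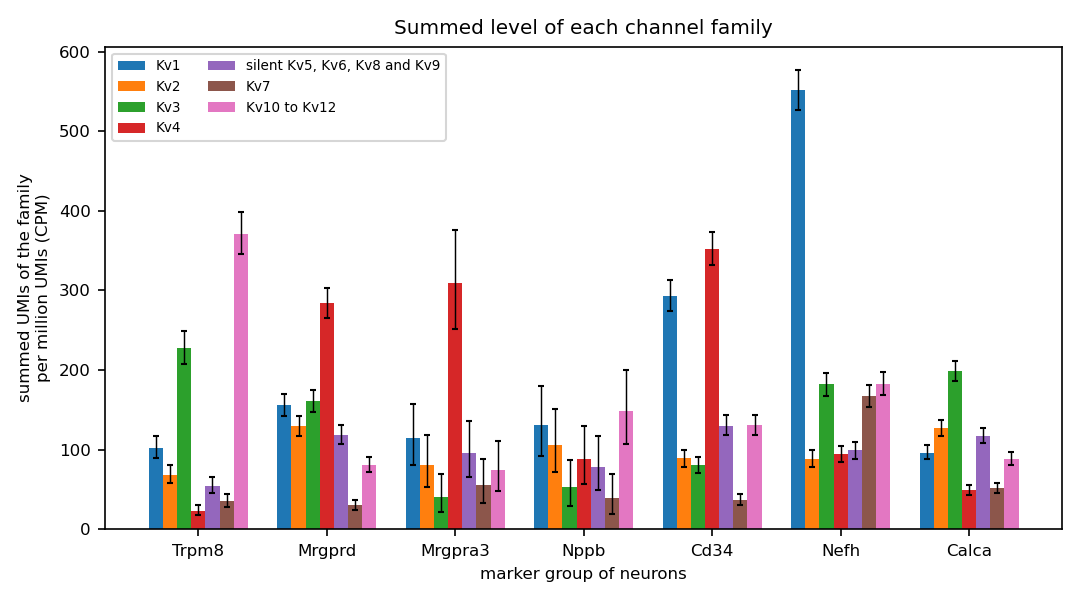
Summed UMIs of each channel family per 1000000 UMIs (vertical axis, CPM) in each of the 7 marker groups; bars start at 0 and error lines are exact Poisson 95% intervals, which cover counting error only. Kv1 is highest in the Nefh group (552), Kv4 in the Cd34 group (352), and the Kv10 to Kv12 family in the Trpm8 group (372).

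Kcnd1, a Kv4 pore subunit on chromosome X (7822289 to 7838280), led in the Mrgprd group. It had 219 CPM (203 to 235) there, 179 (136 to 232) in the Mrgpra3, 148 (135 to 162) in the Cd34, 77.5 in the Nppb, 68.6 in the Nefh, 38.6 in the Calca and 17.4 in the Trpm8 group. The ratio was 3.10 (2.81 to 3.41) for the Mrgprd group, whose interval overlapped that of the Mrgpra3 group. Kcnd3, a second Kv4 subunit on chromosome 3 (105452330 to 105674002), led instead in the Cd34 group with 196 CPM (181 to 212). It had 127 (91.0 to 172) in the Mrgpra3, 65.1 in the Mrgprd, 19.7 in the Nefh, 10.6 in the Nppb, 10.3 in the Calca and 5.19 in the Trpm8 group. The Cd34 ratio was 7.26 (6.37 to 8.27), with UMIs in 65.6% of Cd34 neurons and in none of the 248 glia-marked cells. The Mrgpra3 level of Kcnd3 rested on 41 UMIs in 12 neurons, 10 of them in 1 neuron, and its log2 ratio of 1.19 became 0.61 under stricter gates. Kcnd2, the third Kv4 gene, had its highest level in the Cd34 group at 8.40 CPM (5.49 to 12.3) with 26 UMIs, followed by the Nefh group at 5.59.

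In the Cd34 group, 5 members were at least 2-fold higher (background 5.05%) and 10 lower (background 12.6%): Kcnd2, Kcnd3, Kcnf1, Kcnh6 and Kcnv1 were the higher. Kcnd2, with 26 of its 49 UMIs in the Cd34 group, passed the filter of 30 UMIs only through that group. The higher members numbered 8 without neurons of more than 1 gate, and the lower 6 without neurons with any glial UMI. Endothelial genes were also highest in the Cd34 group, among them Flt1 and Emcn at 7.11 CPM and Pecam1 at 5.17. All members together had 88.8 CPM in endothelial-marked cells, and the part of endothelial RNA was not tested. Kcnf1, a silent Kv5 subunit on chromosome 12 (17172100 to 17176888), had 71.7 CPM (62.6 to 81.8) in the Cd34 group and 41.9 (35.2 to 49.5) in the Mrgprd group. It had 18.6 in the Mrgpra3, 4.71 in the Trpm8, 1.44 in the Calca and 0.883 in the Nefh group, and no UMI in the Nppb group. The Cd34 ratio was 6.28 (5.11 to 7.73) and the intervals of the Cd34 and Mrgprd groups were separate. The log2 ratio of Kcnf1 in the Mrgprd group was 1.25, and 0.91 after thinning. Kcnh6, an erg subunit, was highest in the Cd34 group at 25.8 CPM (20.5 to 32.2), then the Trpm8 group at 17.9, with no UMI in the Nppb group and a Cd34 ratio of 2.69 (2.02 to 3.57). Kcnv1, a silent Kv8 subunit, was highest there as well, at 25.5 CPM, a ratio of 2.78 (2.08 to 3.70), with 18.6 in the Mrgpra3 and 16.4 in the Calca group and no UMI in the Trpm8 group. In the Calca group 19 of its 80 UMIs were in 1 neuron. Kcna4, an inactivating Kv1 subunit, was highest in the Cd34 group with 39.4 CPM against 28.4 in the Mrgprd group and 15.5 in the Mrgpra3 group, and passed the fold in no group.

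The Mrgprd group held 5 members at least 2-fold higher (background 5.98%) and 17 lower (background 18.1%). The higher were Kcnc4, Kcnd1, Kcnf1, Kcng2 and Kcng3, a count that was 3 when neurons of more than 1 gate or the deepest neurons were left out. Kcng3, with 44 UMIs over the groups, passed the filter of 30 UMIs only through the Mrgprd group. The median log2 ratio of the members was -1.54, against -0.14 for all genes. After thinning to 1000 UMIs these medians were -0.10 and -0.02, and without neurons of more than 1 gate -0.82 and -0.16, with members at or under the floor in both terms left out, so these medians are not all over the same members. Kcnc4, a Kv3 subunit with rapid inactivation on chromosome 3 (107438303 to 107459552), had 144 CPM (132 to 158) in the Mrgprd and 109 (100 to 119) in the Calca group. It had 59.8 in the Nefh, 32.6 in the Cd34, 31.6 in the Trpm8 and 17.6 in the Nppb group and no UMI in the Mrgpra3 group. The Mrgprd and Calca intervals were separate. The Mrgprd ratio was 2.24 (2.001 to 2.51), and its log2 value of 1.16 became 0.88 without neurons of more than 1 gate.

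Kcng2, a silent Kv6 subunit, had 48.3 CPM (41.1 to 56.4) in the Mrgprd group, 24.7 in the Nppb, 18.6 in the Mrgpra3, 9.65 in the Calca, 6.48 in the Nefh and 2.91 in the Cd34 group. The Mrgprd ratio was 7.48 (5.74 to 9.79), and the wide interval of the Nppb group, with 7 UMIs, overlapped that of the Mrgprd group. Kcng3, another Kv6 subunit, had 44 UMIs over the groups and 5.20 CPM in the Mrgprd group, where its log2 ratio of 1.44 became 0.59 without neurons of more than 1 gate. Kcna6, a Kv1 subunit next to Kcna1, was highest in the Mrgprd group at 74.3 CPM (65.2 to 84.2), close to 68.1 in the Mrgpra3 group and above 12.7 in the Trpm8 group, and its ratio of 1.92 fell short of the fold. Kcna1, Kcna5 and Kcna6 lie between 126532551 and 126740674 on chromosome 6, and Kcna2, Kcna3, Kcna10 and Kcnc4 between 107036169 and 107459552 on chromosome 3. Of those with at least 100 UMIs, Kcna1 was highest in the Nefh and Kcna6 in the Mrgprd group, and Kcna2 in the Trpm8 and Kcnc4 in the Mrgprd group.

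Large neurons of the Nefh group had the most members at least 2-fold higher than in the other groups. There, 11 of 33 were at least 2-fold higher (background 7.02%) and 8 lower (background 9.32%). Among the 11 were Kcna1, Kcnc1, Kcnd2, Kcng4, Kcnh2, Kcnh5, Kcnq3 and Kcns1. Kcng4, with 34 UMIs over the groups, passed the filter of 30 UMIs only through the Nefh group. The sum of all members was also highest there, at 1364 CPM (1325 to 1404), but without Kcna1 it was 880, below 916 in the Cd34 and 911 in the Mrgprd group.

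**Figure D3:**
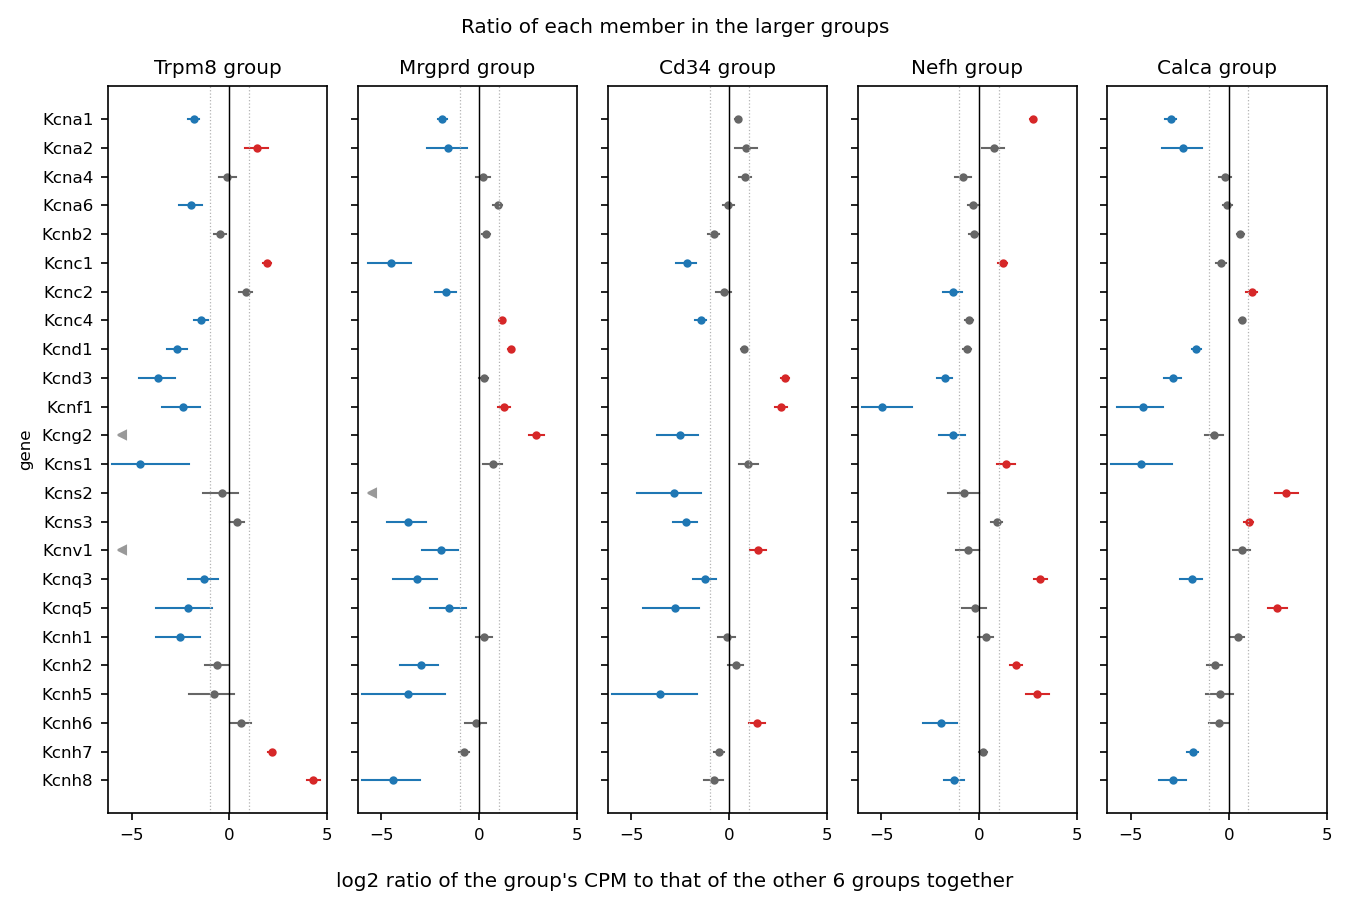
Log2 ratio of members with at least 100 UMIs over the groups (rows) in the 5 larger marker groups (panels) to the other 6 groups together; points are ratios, lines exact 95% intervals (cut at the panel's left edge), red at least 2-fold higher, blue at least 2-fold lower, and gray triangles a group with no UMI. Kcna1 and Kcnq3 lie to the right in the Nefh panel, and Kcnh8 lies at 4.29 in the Trpm8 panel.

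Kcna1, the Kv1 subunit of the juxtaparanode of myelinated axons, lies on chromosome 6 (126640397 to 126646384) and had the most UMIs of the members, 2656 over the groups. It had 484 CPM (461 to 508) in the Nefh group, 195 (180 to 212) in the Cd34, 56.3 in the Nppb, 48.0 in the Mrgprd, 47.1 in the Trpm8, 25.9 in the Calca and 21.7 in the Mrgpra3 group. The Nefh ratio was 6.69 (6.18 to 7.24), and no interval overlapped that of the Nefh group. UMIs of Kcna1 were in 70.0% of Nefh neurons and in 35.3% of them at equal depth.

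Glial RNA was measured beside Kcna1, since 248 glia-marked cells of the table had 548 CPM of Kcna1 (481 to 622), with UMIs in 37.5% of them. The summed level of 7 glial genes was 546 CPM in the Nefh group, 408 in the Calca, 334 in the Cd34, 207 in the Mrgprd and 164 to 166 in the other 3 groups, against 125316 in glia-marked cells. Among the 218 Nefh neurons with no UMI of any of these genes, Kcna1 was 619 CPM (570 to 673), above the 484 of the whole group. These neurons were shallower, with a mean of 4199 UMIs against 7548 in the whole group, and the part of depth was not tested. In the Cd34 group it was 284 CPM among 91 such neurons. The Nppb group differed: none of its 16 Kcna1 UMIs was in the 26 neurons with no glial UMI, and 15 of the 16 were in 1 neuron. In the Calca group Kcna1 was 13.5 CPM among 461 neurons with none, against 25.9 in the whole group.

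**Figure D4:**
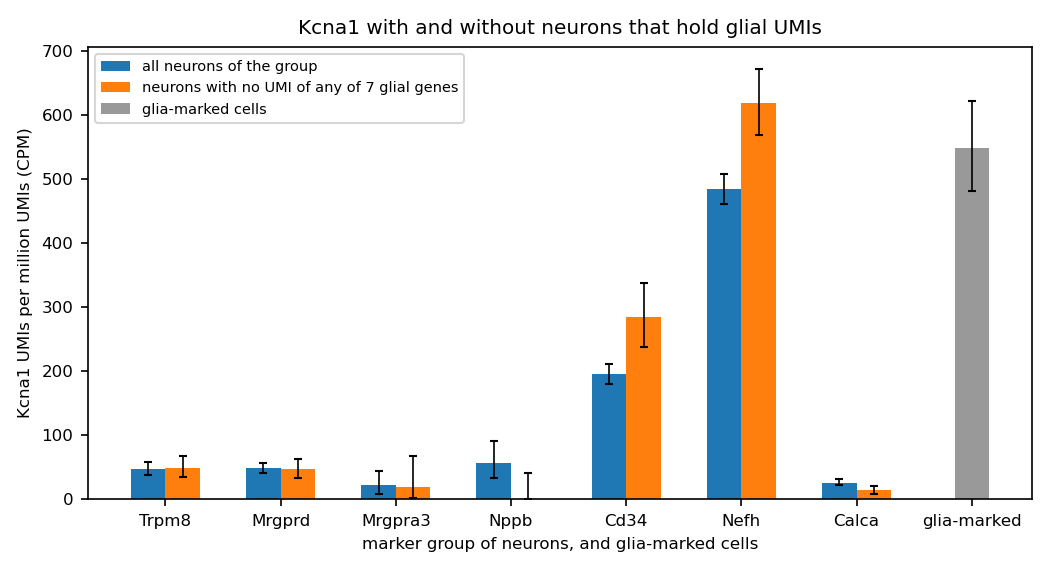
Kcna1 level (CPM, vertical axis) in each marker group, for all neurons and for neurons with no UMI of any of 7 glial genes, beside glia-marked cells; error lines are exact Poisson 95% intervals. The Nefh bar is 484 and then 619, and the Nppb bar is 56.3 and then 0.

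The Kv7 family, whose M-current restrains firing, was highest in the Nefh group. Its summed level was 167 CPM (154 to 182) there and 30.3 to 55.7 in the other 6 groups, a ratio of 4.13 (3.67 to 4.65). Kcnq3, a subunit of the M-current channel, had 63.6 CPM (55.4 to 72.7) in the Nefh group, 43.3 (23.7 to 72.7) in the Mrgpra3 and 2.45 in the Mrgprd group. Its Nefh ratio was 8.79 (6.91 to 11.3), and the Mrgpra3 interval, from 14 UMIs, overlapped it. The log2 ratio of Kcnq3 in the Mrgpra3 group was 1.28, and 0.65 with cells weighing equally. Glia-marked cells had 34.3 CPM of Kcnq3, above its level in the grouped neurons together. Kcnq5 had another order than Kcnq3: it was highest in the Calca group at 22.8 CPM (18.7 to 27.4), then 8.24 in the Nefh group, with no UMI in the Mrgpra3 group and a Calca ratio of 5.58 (3.97 to 7.94).

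Other members high in the Nefh group were the ether-a-go-go subunits Kcnh2 and Kcnh5. Kcnh2, the erg channel of the heart, had 48.6 CPM (41.5 to 56.6) there, 24.2 in the Cd34 and 3.06 in the Mrgprd group, the lowest, a ratio of 3.67 (2.95 to 4.55). Kcnh5, a Kv10 subunit, had 20.9 CPM (16.3 to 26.4) there, 4.93 in the Calca and no UMI in the Mrgpra3 group, a ratio of 7.89 (5.23 to 12.1). Kcns1, a silent Kv9 subunit, had 19.7 CPM in the Nefh, 16.8 in the Cd34, 14.4 in the Mrgprd and 0.471 in the Trpm8 group, with a Nefh ratio of 2.60 (1.88 to 3.56), which was 0.98 on the log2 scale without the deepest neurons. Kcng4 passed the fold on 20 UMIs in 5 Nefh neurons, 16 of them in 1 neuron. Its log2 ratio there, 2.55, was 0.70 when cells weighed equally and 0.26 without the deepest neurons.

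Within the Nefh group, channels also differed between neurons split by genes that are no members. Neurons with at least 2 UMIs of Ntrk2 (91), a receptor of some touch neurons, were set against those with none (317). Kcnq3 had 113 CPM (93.0 to 135) against 42.4 (33.9 to 52.3) and Kcns3 78.6 against 35.5, and both were among 3 members at least 2-fold higher (background 2.18%). Kcna4, Kcnd3, Kcnh8 and Kcnv1 were at least 2-fold lower (background 4.43%), with Kcnd3 at 6.79 against 27.3 CPM. Median depth was 7083 UMIs in the first and 3613 in the second set, and the glial genes were 805 and 439 CPM; their part in these values was not tested.

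Nefh neurons with at least 5 UMIs of Calca (89) were set against those with 0 or 1 (322). Of the 20 members tested, 10 were at least 2-fold lower in the Calca-bearing neurons (background 6.85%), among them Kcna1, Kcnc2, Kcnh1, Kcnh2, Kcnh5, Kcnh7, Kcnq3 and Kcns1. Kcna1 had 236 CPM (206 to 270) against 583 (549 to 618), and Kcnh7 31.4 against 93.1. Kcnd3, at 39.0 against 13.2, and Kcna4, at 24.9 against 9.998, were at least 2-fold higher (background 4.16%). Median depth was 6021 and 3645 UMIs and the glial genes were 431 and 667 CPM, whose part was not tested.

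Peptidergic neurons of the Calca group had 6 members at least 2-fold higher (background 7.65%) and 13 lower (background 9.58%). The higher were Kcnc2, Kcng1, Kcnh3, Kcnq5, Kcns2 and Kcns3, of which Kcng1, Kcns2 and Kcns3 are silent subunits of Kv2. The count of higher members was 3 when neurons with any glial UMI were left out. Kcns2 had 20.7 CPM (16.9 to 25.2), against 6.13 in the Trpm8 and 5.01 in the Nefh group, and no UMI in the Mrgprd, Mrgpra3 and Nppb groups, and its ratio was 7.62 (5.12 to 11.6). Kcng1, with 96 UMIs over the groups, had 87 of them in the Calca group (17.9 CPM), in 57 neurons, and so passed the filter of 30 UMIs only through that group. The next was the Nefh group at 2.06 CPM, and the Calca ratio was 24.8 (12.5 to 56.0). Kcnh3, with 65 UMIs over the groups, also passed the filter of 30 UMIs only through the Calca group. Kcns3 was as high in the Nefh group, 49.8 CPM (42.5 to 57.9), as in the Calca group, 48.9 (42.9 to 55.5), and lowest in the Mrgprd group at 3.06. Its Calca ratio of 2.01 became a log2 ratio of 0.67 in neurons thinned to 1000 UMIs, from 1.01.

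Kcnc2, a Kv3 subunit, had 45.8 CPM (40.0 to 52.2) in the Calca and 44.8 (36.2 to 54.8) in the Trpm8 group, which did not differ beyond counting error, and 9.78 in the Mrgprd group, the lowest. Its Calca log2 ratio of 1.17 was 0.96 with cells weighing equally. Kcnh3, a Kv12 subunit of the forebrain, had 9.86 CPM in the Calca group from 48 UMIs; Mcrs1, which overlaps it on the opposite strand, had 1034. Kcnh1, a Kv10 subunit, had 24.0 CPM in the Calca, 23.6 in the Nefh and 3.09 in the Mrgpra3 group, and passed the fold as higher in none. Within the Calca group, neurons with a UMI of Trpa1 (437), the irritant receptor, had at least 2-fold less Kcna1, Kcnd3, Kcnh2 and Kcnv1 than those without (479; background 1.72%), and no member was at least 2-fold higher, where 204 of 10093 genes were (2.02%). Kcna1 had 13.3 CPM against 41.6 and Kcnv1 8.86 against 25.9; median depth was 4319 and 3091 UMIs and the glial genes were 357 and 472 CPM, and their part was not tested.

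**Figure D5:**
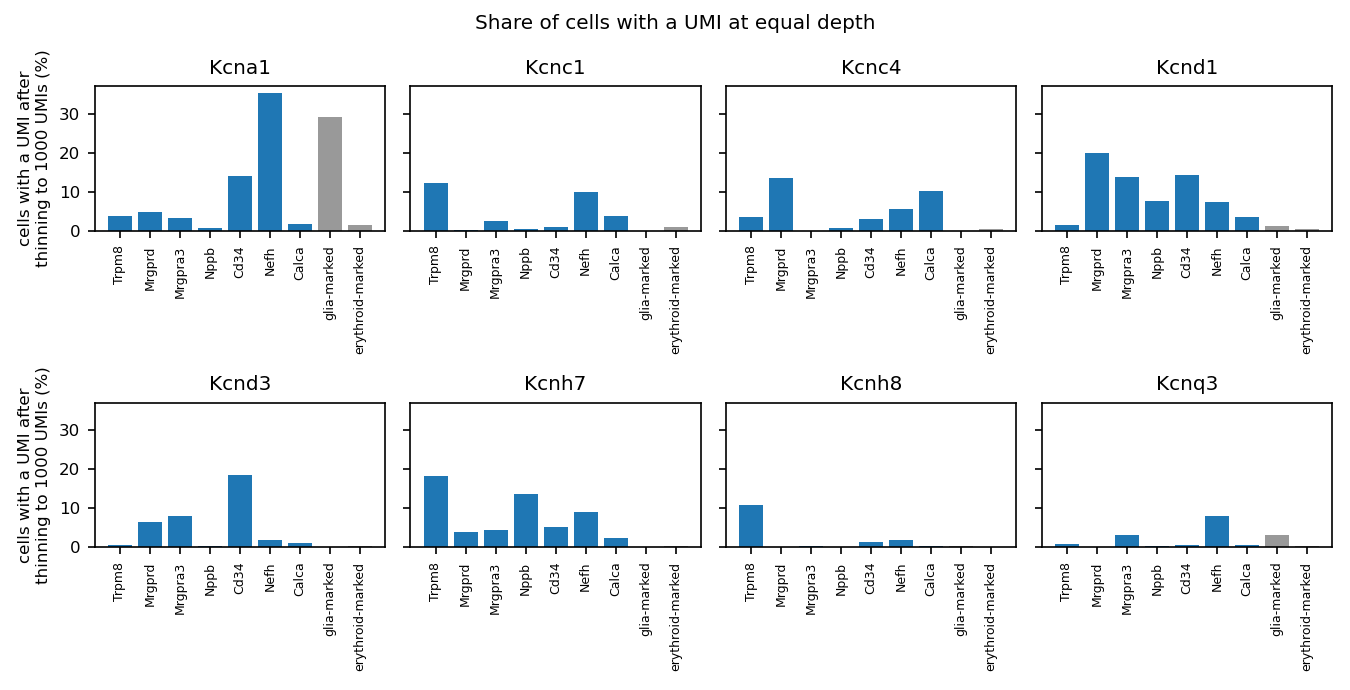
Share of cells with a UMI of each of 8 members (vertical axis, percent) after each cell is thinned to 1000 UMIs, by marker group (blue) and in glia-marked and erythroid-marked cells (gray). Kcnh8 is at 10.9% in the Trpm8 group and Kcna1 at 35.3% in the Nefh group, where glia-marked cells have 29.0% for Kcna1.

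The Kv2 genes, whose channels carry the slow delayed rectifier with which the silent subunits combine, had the narrowest range of the 7 families, with a summed level of 68.4 CPM in the Trpm8 group and 129 in the Mrgprd group. Kcnb2 had 83.0 CPM (75.1 to 91.5) in the Calca, 77.0 (67.8 to 87.1) in the Mrgprd, 59.9 in the Nppb, 54.2 in the Nefh, 49.5 in the Mrgpra3, 46.7 in the Trpm8 and 39.7 in the Cd34 group. Kcnb2 passed the fold in no group.

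The itch groups were small, with 249 and 182 UMIs of members. The Mrgpra3 group had Kcnd3, Kcng4 and Kcnq3 past the fold as higher (background 6.92%) and 9 lower (background 11.2%), and the Nppb group Kcng4 alone as higher (background 7.17%) and 12 lower (background 10.8%). The 9 became 4 after thinning or without neurons of more than 1 gate, the 12 became 4 after thinning and 3 without neurons with any glial UMI, and the higher count of the Nppb group ran from 0 to 3 over the alternatives. Kcng4 rested on 2 UMIs in each, and its intervals held 1, as did those of 9 of the lower calls in these groups. The Nppb group had 127 CPM of Kcnh7 and no UMI of 5 of the members with at least 100 UMIs over the groups, Kcna2, Kcnf1, Kcnh6, Kcnh8 and Kcns2, and 3 UMIs would have given 10.6 CPM.

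The partners of these channels, from a list of accessory subunits and anchoring proteins, were described in the same way, with 19 tested. In the Mrgprd group Kcnab1, Kcnip2 and Kcnip4 were at least 2-fold higher: Kcnip4, which binds Kv4 channels, had 589 CPM there, a ratio of 4.73 (4.43 to 5.05), and Kcnip2, another Kv4 partner, 314 CPM, a ratio of 5.42 (4.94 to 5.95). Kcnab1, a beta subunit of Kv1, had 194 CPM there. In the Cd34 group Kcnip2 (219 CPM) and Dpp10, a second kind of Kv4 auxiliary subunit, were higher, Dpp10 with 388 CPM and a ratio of 6.78 (6.20 to 7.42). In the Trpm8 group Kcnip2 and Dpp10 were 4.71 and 12.7 CPM, where Kcnd1 and Kcnd3 were low as well. In the Nefh group Cntnap2, Lgi2, Lgi3, Dlg2 and Kcnab3 were higher: Cntnap2, which holds Kv1 at the juxtaparanode, had 198 CPM, a ratio of 3.82 (3.43 to 4.25), and Lgi3 170 CPM. Lgi3 was also 416 CPM in glia-marked cells, and was itself among the further markers of the Nefh group. In the Trpm8 group Kcnab3, Cntn2, Lgi3 and Dlg2 were higher, Cntn2 with 387 CPM. Lgi1, a secreted protein that sets Kv1 levels, was higher in the Mrgpra3 (223 CPM, ratio 6.53) and Nppb (208 CPM, ratio 5.97) groups, the latter with Kcnab3 on 3 UMIs. Partners at least 2-fold higher numbered 5 of 19 in the Nefh group (background 7.02%), 4 in the Trpm8 (4.38%) and 3 in the Mrgprd (5.98%). They numbered 2 each in the Cd34 (5.05%) and Nppb (7.17%), 1 in the Mrgpra3 (6.92%) and none in the Calca group (7.65%). Partners at least 2-fold lower numbered 9 of 19 in the Trpm8 group (background 15.7%), 8 in the Calca (9.58%), 7 in the Mrgprd (18.1%), 6 each in the Nppb (10.8%) and Cd34 (12.6%) and 3 each in the Mrgpra3 (11.2%) and Nefh (9.32%) groups.

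Across the 7 groups, 122 group ratios of the 33 members passed the fold, and for 111 of them the counting interval left out 1. The shares of all genes past the fold are given with each group above. No such share was taken for the intervals, so whether 111 is unusual was not tested. Each neuron showed few of the members: the median neuron had UMIs of 5 in the Cd34 group, 4 in the Trpm8, Mrgprd and Nefh groups and 2 in the Mrgpra3, Nppb and Calca groups. At equal depth, after thinning to 1000 UMIs, the mean was highest in the Nefh group, at 1.34 members, followed by 1.03 in the Cd34, 0.927 in the Mrgprd and 0.826 in the Trpm8 group. As counted, at least 1 member was seen in 80.7% of neurons of the Nppb group and 96.6% of the Mrgprd group. The share was 46.4% of glia-marked cells (17.3% without Kcna1) and 7.53% of erythroid-marked cells. At equal depth these shares were 44.3%, 61.1%, 36.0% (11.5% without Kcna1) and 5.35%, and the Nefh group was highest at 70.7%. The remaining 7 members had under 30 UMIs over the groups and no ratio was taken: Kcna5 had 12, Kcna7 had 7, Kcna3 had 4, Kcna10 and Kcnq1 had 2 each, and Kcnh4 and Kcnv2 had none there, with 5 and 1 UMIs in the ungrouped neurons. Kcna5 is a Kv1 subunit known from heart muscle, Kcna3 is the Kv1 subunit of T cells, and Kcnq1 the Kv7 subunit of the heart.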

How the data were processed

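Trigeminal neurons were captured by Dropseq in 9 runs. By the processing notes of the submitters and the methods of the study, reads were demultiplexed with bcl2fastq 2.17 and aligned to mm10 with STAR 2.5.3a. The authors deposited 1 table of UMI counts per gene and cell barcode, not normalized, for barcodes with at least 1000 UMIs. It holds 30491529 UMIs, and barcodes had a median of 2031. Whether counting used strand is not given in the sources used here. Here, UMIs were summed over the neurons of each group (Python 3.11.15, numpy 2.4.6, SciPy 1.17.1). A gene was tested with at least 30 UMIs over the 7 groups, a ratio of at least 2 or at most 0.5 counted as past the fold, and a count of 0 was set to a floor of 3 counts. Expected shares after thinning each cell to 1000 UMIs were computed without drawing; no doublet caller was run, the printed levels keep neurons that met more than 1 gate, and leaving these out was an alternative. Glia-marked and erythroid-marked cells had UMIs of at least 3 of their marker genes and of under 2 neuron genes. Promoters come from RefSeq (25 of 40 members matched) and gene positions from GENCODE M21 on GRCm38. Members with at least 100 UMIs were to be given in all groups or by the highest, second and lowest, members with 30 to 99 by the highest, and the rest by their UMIs. The members and lists were chosen with earlier results of these data known. Values of some genes, and an alternative that needed them, are not reported here. Ratio and interval code was tested on simulated data.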

Additional observations from a re-analysis of the deposited data

Results flagged for a closer look

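Cells outside the neurons, which are in none of the ratios between marker groups and stand above only as background levels, held signals above the level in the grouped neurons. The 4 listed here are not all of them. Kcnq3 in glia-marked cells, given above beside its Nefh level, was also higher than in the grouped neurons. Kcna1 was 548 CPM (481 to 622) in glia-marked cells, against 153 in the grouped neurons, from 240 UMIs. Kcnh8 was 55.8 CPM (37.7 to 79.7) in cells marked by anterior pituitary hormone genes, against 21.2, from 30 UMIs in 25 cells. Kcnd2 was 18.6 CPM (8.92 to 34.2) in the same cells, against 2.82, from 10 UMIs in 10 cells. Kcnq1 was 26.1 CPM (8.48 to 61.0) in endothelial-marked cells, from 5 UMIs, against 0.115. These levels rest on 106 endothelial-marked, 239 pituitary-marked and 248 glia-marked cells and on counting error alone.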

How the results depend on the processing

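All cells form 1 pooled sample, so the limits below concern counting and processing, and the spread between runs or mice is unknown. No paired analysis was possible because the 9 runs form 1 group and the barcodes do not name them. Of 32 ratios at least 2-fold higher, taken over the members with values of their own here, 22 stayed past the fold under every alternative reported here that gave a value, and of 67 lower ratios with a UMI in the group 47 did. Leaving out the most abundant genes or neurons over the mitochondrial limit kept 99 of 99 of these past the fold, cells weighing equally 91, and thinning to 1000 UMIs 61 of the 70 with a ratio. Neurons with a UMI of any of 7 glial genes were left out as an alternative chosen after seeing the data. The split of the Trpm8 group by Nefh left 10 neurons without Nefh, too few for values.

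The summed CPM of all members moved as follows, and the cause was not tested except where fewer UMIs in the total set it. Without the most abundant genes, which lowers the totals, it was 1107 in the Trpm8, 1189 in the Mrgprd, 977 in the Mrgpra3, 787 in the Nppb, 1364 in the Cd34, 1729 in the Nefh and 918 in the Calca group. After thinning it was 967 in the Trpm8, 1013 in the Mrgprd, 1156 in the Cd34 and 1687 in the Nefh group. Without neurons of more than 1 gate it was 831 in the Trpm8 group, and with stricter gates 1049 in the Cd34 group. Without neurons with any glial UMI it was 677 in the Mrgpra3 and 1686 in the Nefh group. In the Nefh group it was 1632 with cells weighing equally and 1422 without the deepest neurons. The count of members at least 2-fold lower was 11 in the Trpm8 group after thinning or without neurons of more than 1 gate, 4 in the Mrgpra3 group under the same alternatives, 4 in the Nppb group after thinning, and, without neurons with any glial UMI, 3 in the Nppb and 6 in the Cd34 group. The count at least 2-fold higher was 3 in the Mrgprd group without neurons of more than 1 gate or without the deepest, 8 in the Cd34 group without neurons of more than 1 gate, and 3 in the Calca group without neurons with any glial UMI. In the Nppb group it was 3 with cells weighing equally, after thinning or with no filter on UMIs, 2 with stricter gates, without neurons of more than 1 gate, without any glial UMI or without the deepest neurons, and 0 with a filter of 100 UMIs. Among ratios past the fold, the log2 ratios that changed sign were Kcna2 in the Mrgprd group (0.010) and Kcnh8 in the Nefh group (0.54) after thinning, Kcnh6 in the Mrgpra3 group (0.56) without neurons of more than 1 gate, and Kcns1 in the Nppb group (0.28) without neurons with any glial UMI.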
